A study of Mus musculus with 4 samples.

Results

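Chemokines, their receptors, the inhibitory G protein alpha subunits that these receptors use, the sphingosine 1-phosphate receptors and the RGS proteins (regulators of G protein signalling) made up 40 of the 6137 genes that the 2 chips of the series name, read by 49 of 13179 probe sets. A probe set was included when its only annotated gene symbol began with Ccl, Cxcl, Xcl, Ccr, Cxcr, Cx3cl, Cx3cr, Rgs, S1pr or Gnai followed by a digit. Of these genes 31 lay on the A chip (35 probe sets) and 14 on the B chip (14 probe sets), with 5 on both. A further 2 probe sets on the A chip carry a symbol of these families among several symbols and were not included.

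The series compared memory with naive CD8 T cells from the B6.2.16 mouse, whose transgenic T cell receptor recognises the HY antigen of male tissue. Donors and hosts were female and deficient in RAG1, the recombinase that lymphocytes need to assemble receptors of their own. The naive population was taken from lymph nodes, with a stated purity over 85%. The memory population began as splenocytes cultured with HY peptide for 4 days and passed to RAG1-deficient hosts. It was recovered 200 days later from spleen and lymph nodes with magnetic beads, with a stated purity over 80%. Each population was hybridised to both chips of an Affymetrix mouse set, so every group had 1 array per chip and 4 arrays were made in all. No array was repeated, so no error, p-value or interval could be given, and each difference compares 1 pair of arrays. Tissue of origin, culture, transfer, age of the cells and sorting differed together with the group and cannot be told apart.

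Chemokines are small secreted proteins that guide the movement of white blood cells. Their receptors pass the signal through inhibitory G proteins, and RGS proteins end it by speeding the return of the alpha subunit to its inactive state. Naive T cells are known to enter lymph nodes through CCR7 and to leave them along a gradient of sphingosine 1-phosphate read by S1PR1. Memory and effector CD8 T cells are known for secreting CCL3, CCL4 and CCL5.

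The arrays report intensities in arbitrary units, many of them below 0. On the B chip, both arrays were scaled to the same mean and signals under 422.8, called the floor here, were treated as noise. On the noisier array, 95% of the negative values were closer to 0 than this. Probe sets count as called here, in either direction, if the ratio was at least 2-fold and the brighter signal reached 845.5, which is 2 times the floor. The memory and naive B arrays had a Spearman correlation of 0.847 across 6540 probe sets, and those of the A chip 0.101 across 6529, which are descriptions across probe sets. The naive A values did not follow the gene names they are listed for, so on the A chip only the memory array is described, against its own noise limit of 184. Intensities of different probe sets are not compared with each other, because probes differ in how well they hybridise.

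Of the members above the floor on the naive B array, Cxcr4 and Gnai2 also have an A-chip probe set. These read 143 and -4 on the naive A array, under that array's noise limit of 296, and 1198 and 245 on the memory A array.

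On the B chip, 4 of the 14 members were above the floor, and none of the 14 was called higher or lower in memory. These were the chemokines Ccl3 and Cxcl2, the receptor Cxcr4 and the G protein subunit Gnai2, and each was above the floor on both arrays. The 4 make up 28.6% of the members, and 16.1% of all 6540 probe sets were above the floor on at least 1 array. Members all carry a gene symbol, whereas 4567 of the 6595 B-chip probe sets, controls included, carry none. The sets are therefore unlike, here and wherever a B-chip share of named genes stands beside that of all probe sets. Over the whole chip 2.75% of probe sets were called, 1.02% higher and 1.73% lower in memory. The room for a call among the members was small. Only Ccl3 was bright enough to be called, and among the 522 probe sets of the chip that were as bright, 34.5% were called. The absence of calls among the other members therefore describes dim probe sets and does not show equal expression.

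**Figure D1:**
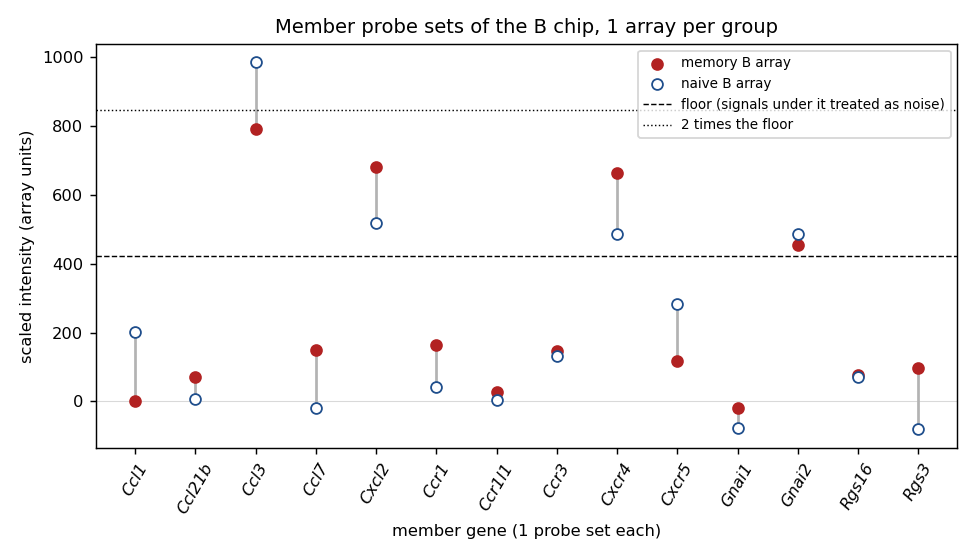
Scaled intensity of the 14 B-chip members on the memory array (filled red) and the naive array (open blue), 1 array per group, with a grey line joining the values of a gene. The dashed line is the floor of 422.8 and the dotted line is 2 times that floor, 845.5. Only Ccl3, Cxcl2, Cxcr4 and Gnai2 lie above the floor, and only the naive Ccl3 value passes the dotted line.

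The promoters of 3 of the 4 measured B-chip genes, the 250 bases before the start site, are shown because these are the members whose values could be set side by side between the groups. The sequences are from RefSeq, build GRCm38.p6, read 5′ to 3′ on the strand of the gene. Capitals mark matches to TATAAA, the core of the TATA box, or to GGGANTTTC, part of a form of the site bound by NF-kappaB, on either strand.
Ccl3 (chr11:83649379-83649628, minus strand): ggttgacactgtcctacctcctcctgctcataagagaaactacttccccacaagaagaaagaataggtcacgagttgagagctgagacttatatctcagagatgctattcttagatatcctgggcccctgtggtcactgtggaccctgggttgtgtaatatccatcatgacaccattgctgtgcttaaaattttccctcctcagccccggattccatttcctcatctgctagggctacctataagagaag
Cxcl2 (chr5:90903649-90903898, plus strand): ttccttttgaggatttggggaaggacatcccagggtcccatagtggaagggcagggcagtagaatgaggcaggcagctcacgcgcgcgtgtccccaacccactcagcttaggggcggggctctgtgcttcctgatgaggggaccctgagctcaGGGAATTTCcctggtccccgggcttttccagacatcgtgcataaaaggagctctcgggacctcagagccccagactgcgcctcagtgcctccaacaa
Cxcr4 (chr1:128592300-128592549, minus strand): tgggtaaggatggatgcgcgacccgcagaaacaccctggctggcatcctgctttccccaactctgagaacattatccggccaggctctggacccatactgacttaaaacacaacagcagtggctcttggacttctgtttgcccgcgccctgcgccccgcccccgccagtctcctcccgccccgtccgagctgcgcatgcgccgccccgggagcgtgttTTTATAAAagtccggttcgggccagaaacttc
The Cxcr4 promoter held TATAAA 30 to 25 bases before the start, overlapped by a match on the other strand. The Cxcl2 promoter held GGGAATTTC 97 to 89 bases before the start. These letters were not found in the Ccl3 window. Among all 32851 promoter windows of that length, 12.4% held TATAAA and 0.941% held the NF-kappaB form. Of the 28 member genes with a promoter entry, 8 held TATAAA and 5 the NF-kappaB form. A gene was counted if any of its windows held the letters, whereas the percentages are per window, so the units differ. Of those 28 genes, 6 were above the noise on the B chip or the memory A array, and TATAAA was in 1 of them, Cxcr4, and the NF-kappaB form in 1, Cxcl2. Among the other 22 the corresponding numbers were 7 and 4. These matches describe sequence and are not evidence of binding.

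Ccl3, the chemokine also known as MIP-1 alpha, read 792.1 on the memory array and 985.4 on the naive array. The naive value was 1.24-fold the memory value, a log2 ratio of memory to naive of -0.32. Signal for this chemokine was thus present in both preparations, with the naive one somewhat the brighter. Cxcl2, which attracts neutrophils through CXCR2, read 679.9 in memory and 518.9 in naive, a log2 ratio of 0.39. Cxcr4, the receptor for CXCL12, read 663.1 in memory and 485.6 in naive, a log2 ratio of 0.45. Both were brighter on the memory array, by 1.31-fold and 1.36-fold. The differences of memory minus naive for Ccl3 (-193.3), Cxcl2 (161.1) and Cxcr4 (177.4) were all smaller in size than 233.5. That is the 95th percentile of difference sizes among the probe sets under the floor on both arrays, so these directions lie within the noise. Gnai2, the inhibitory alpha subunit that lymphocytes use most, read 454.6 in memory and 485.6 in naive. Its log2 ratio of -0.10 turned to 0.05 with median-ratio scaling and to 0.002 with quantile normalization. The Gnai2 probe set is of the class whose probes match a family of related sequences, so related alpha subunits may contribute to its value.

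All 4 ratios lay well inside the spread of the chip. Of the 696 probe sets above the floor on both arrays, the central 90% had log2 ratios between -1.56 and 1.04, and the middle 50% between -0.57 and 0.26. The median of the 4 members was 0.15, and that of the 696 probe sets was -0.15. Over all 1056 measured probe sets, which include those above the floor on only 1 array, it was -0.12. Cxcr4 and Cxcl2 stood above the middle 50% and inside the central 90%, and Ccl3 and Gnai2 were within the middle 50%.

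**Figure D2:**
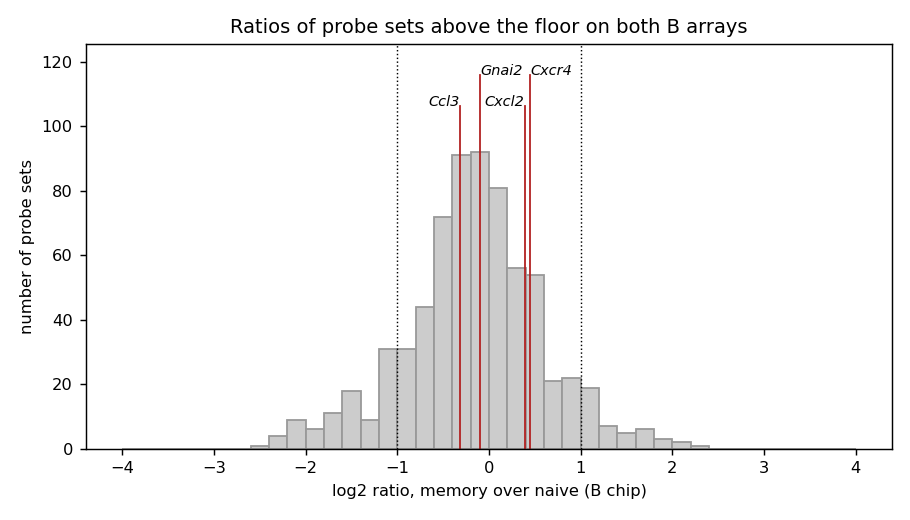
Number of B-chip probe sets by log2 ratio of memory over naive, for the 696 probe sets above the floor on both arrays. Red lines mark Ccl3 (-0.32), Gnai2 (-0.10), Cxcl2 (0.39) and Cxcr4 (0.45), and dotted lines mark 2-fold in each direction. All 4 members lie between the dotted lines.

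The remaining 10 B-chip members were under the floor on both arrays, so no ratio is given for them. Among the ligands, Ccl1, which acts through CCR8, read 0.0 in memory and 201.5 in naive. Ccl7, which attracts monocytes, read 149.9 and -19.1. Ccl21b, a copy of the lymph node chemokine that binds CCR7, read 69.5 and 7.1, and near-identical copies of this gene could share its probes. The order of the arrays thus differed among these ligands, within the noise. Among the receptors, Cxcr5, which leads lymphocytes to B cell follicles, had the highest value of the 10 on the naive array, 283.1 against 117.1 in memory. Ccr1, a receptor for CCL3 and CCL5, read 162.8 in memory and 42.3 in naive. Ccr3, the eotaxin receptor, read 147.9 and 133.0, and the related Ccr1l1 read 26.8 and 5.0. None of these receptors reached the noise limit of its own array, which was 286.8 for memory and 422.8 for naive. Of the intracellular members, Rgs3 read 97.3 and -81.6, Rgs16 read 76.4 and 71.5, and the alpha subunit Gnai1 read -18.9 and -78.6. In 8 of the 10 the memory value was the higher and in 2, Ccl1 and Cxcr5, the naive value, all within noise. Of all 5484 probe sets under the floor on both arrays, 51.1% had the higher value in memory. The differences had a median size of 91.4 and reached 201.5. Over those 5484 probe sets the median size was 50.8 and the 95th percentile 233.5.

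On the memory A array, 11 of the 35 member probe sets, for 10 genes, were above the noise limit. That is 31.4%, beside 26.7% of all 6529 probe sets on that array. At the doubled limit of 368 it was 8 of 35, or 22.9%, beside 13.9% of all probe sets. By family, 5 of 20 chemokine probe sets, 3 of 5 chemokine receptors, 2 of 6 RGS probe sets, 1 of 3 alpha subunits and 0 of 1 sphingosine 1-phosphate receptor were above 184. These are levels in memory alone, with no naive value beside them. The 24 probe sets not above 184 had a median of 20.5 and ranged from -167 to 155, with 8 below 0.

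**Figure D3:**
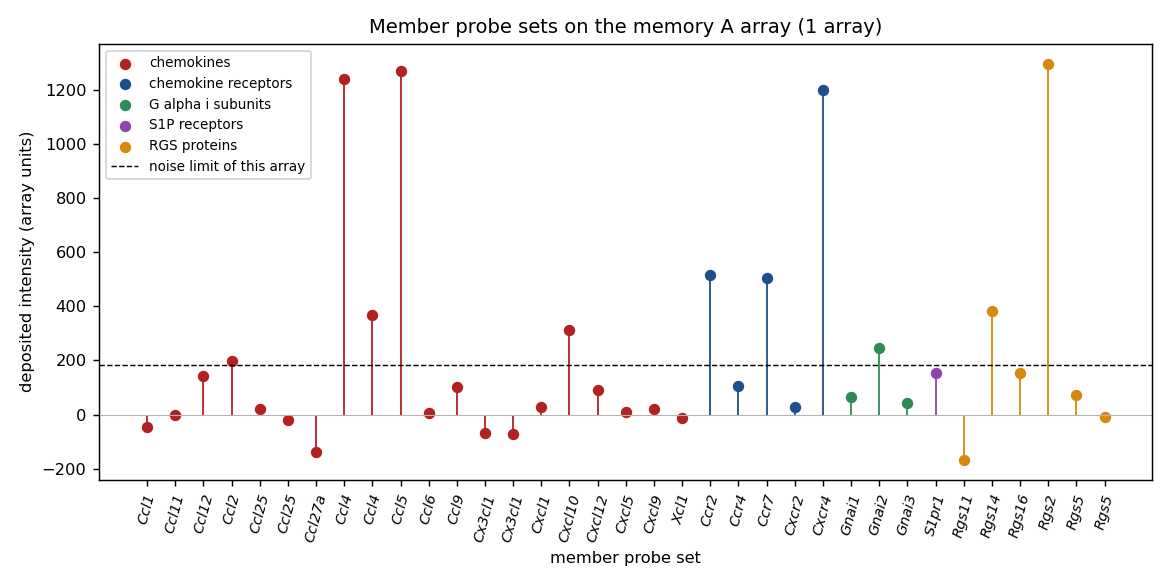
Deposited intensity of the 35 A-chip member probe sets on the memory A array, coloured by family, with the dashed line at that array's noise limit of 184. Heights of different probe sets are not comparable, and the plot shows which probe sets clear the limit. Those for Ccl2, Ccl4 (2 probe sets), Ccl5, Cxcl10, Ccr2, Ccr7, Cxcr4, Gnai2, Rgs2 and Rgs14 do.

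Among the ligands on the memory A array, Ccl5, also known as RANTES, read 1269, which is 6.90 times the noise limit. Ccl4, also known as MIP-1 beta, was read by a pair of probe sets at 1240 and 369. Both probe sets for Ccl4 cleared the limit, although their readings differed. Cxcl10, an interferon-induced ligand of CXCR3, read 312. Ccl2, which attracts monocytes through CCR2, read 198, only 1.08 times the limit. Cxcl10 and Ccl2 were no longer above a limit set at the 99th percentile, 321.4.

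Of the ligands not above the limit, Xcl1, or lymphotactin, a product of activated CD8 T and NK cells, read -12. Cxcl9, which shares the receptor CXCR3 with CXCL10, read 22. The neutrophil attractants Cxcl1 and Cxcl5 read 27 and 10. Signal for these was therefore not detectable on this array. Cxcl12, the stromal ligand of CXCR4, read 89, and Ccl25 (19 and -21), Ccl27a (-138) and Cx3cl1 (-69 and -71) were likewise not above noise. The monocyte attractant Ccl12 read 142, Ccl9 read 100, Ccl6 read 4, the eotaxin Ccl11 read 0 and Ccl1 read -45. The paired probe sets for Ccl25 and Cx3cl1 gave the same result, no signal above noise.

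Among the receptors, Cxcr4 read 1198 on the memory A array, 6.51 times the limit. Ccr7, the lymph node homing receptor of naive and central memory T cells, read 505, and Ccr2, a receptor of monocytes and some memory T cells, read 516. Ccr4, a receptor of skin-homing and helper T cells, read 107, and Cxcr2, the neutrophil receptor, read 28. S1pr1, the receptor for lymph node exit, read 155, under the limit but above 92.0, which is that limit halved. The halved limit was also cleared by Ccr4, Ccl9, Ccl12 and Rgs16, and by 42.3% of all probe sets. Cxcr4, Ccr7 and Ccr2 also cleared the doubled limit of 368.

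Of the intracellular regulators, Rgs2, which acts mainly on the Gq class of alpha subunits, read 1295, or 7.04 times the limit. Rgs14, a regulator of inhibitory alpha subunits that also binds them through a second domain, read 381. Rgs16, an RGS protein induced on T cell activation, read 154. Rgs11, known mainly from nervous tissue, read -167. Rgs5 read -10 and 73. Of the 5 RGS genes on this chip, 2 were thus above noise. Gnai2 read 245, 1.33 times the limit, whereas Gnai1 and Gnai3 read 64 and 44 and were not above it. This Gnai2 probe set is also of the sequence-family class, and it was not above the limit at the 99th percentile, 321.4, or the doubled limit.

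The 5 member genes with probe sets on both chips gave the same detection on every array that could be used. Cxcr4 and Gnai2 cleared the limit of the memory A array and the floor on both B arrays. Ccl1, Gnai1 and Rgs16 were above neither. The comparison is of detection only, because the probe sets differ between the chips.

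Several members are neighbours in the genome among protein-coding genes of the RefSeq table, and detection differed between neighbours. In the run of 5 genes Ccl5, Ccl9, Ccl6, Ccl3 and Ccl4, there was signal above noise for Ccl5, Ccl3 and Ccl4, with Ccl3 read on the B chip and the rest on the memory A array. Of the 4 neighbours Ccl2, Ccl7, Ccl11 and Ccl12, only Ccl2 was above noise. Of the receptor cluster of 4, Ccr1, Ccr1l1, Ccr3 and Ccr2, only Ccr2 was. Of the neighbours Cxcl1 and Cxcl2, Cxcl2 was. Probe sets of neighbouring genes differ in sensitivity and partly sit on different chips, so these are descriptions of detection. The limits differ too, 184 on the memory A array and 422.8 on the B chip, and Ccl2 read only 1.08 times its limit. Contrasts between neighbours on different chips may therefore reflect the limits.

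Other genes of the pathway were taken from 6 lists. On the B chip 15 of these genes had a probe set, 7 were above the floor (46.7%, beside 16.1% of all probe sets, with a gene counted by its brightest one), none was called higher and 1 was called lower in memory, beside 1.02% and 1.73% of all probe sets. The one called was Cd74, the invariant chain of MHC class II molecules and a receptor for the cytokine MIF, at 3068.1 in memory against 9506.9 in naive, a log2 ratio of -1.63. Quantile normalization and intensity-dependent normalization each ended its call. The GTPase Rac2, which drives actin assembly in moving leukocytes, read 3778.8 against 6787.7, a log2 ratio of -0.84. Its relatives Rac1 (2205.5 against 1816.6) and Cdc42 (2770.3 against 3196.9) had log2 ratios of 0.28 and -0.21. Gnas, the stimulatory alpha subunit, read 1640.8 against 1410.5, a log2 ratio of 0.22. The beta subunits Gnb1 (430.8 against 357.7) and Gnb2 (456.6 against 239.8) were above the floor only in memory, by a small margin. The B-chip probe sets for Gnas, Gnb1, Gnb2 and Cdc42 are of the sequence-family class, so related genes may contribute to their values. The median log2 ratio of the 7 pathway genes above the floor was 0.03.

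On the memory A array, 17 of 38 pathway genes (44.7%, beside 26.7% of all probe sets, a pathway gene being counted by its brightest probe set) were above the noise limit. Of the G protein effectors and chemotaxis genes 7 of 13 were, among them Dock2 (1435), the activator of Rac in lymphocytes, Coro1a (1481), an actin regulator of T cells, and the adenylyl cyclase Adcy7 (966). Of the alpha subunits outside the inhibitory class 3 of 8 were: Gnas, Gna13 (392) and the haematopoietic Gna15 (334). Of the beta and gamma subunits 2 of 5 were, Gnb1 (254) and Gng11 (482). Of the atypical receptors and other chemoattractants 3 of 8 were, Mif (565), Cmtm6 (436) and Cmtm7 (816). Klf2 (523), the transcription factor that controls S1pr1, and the sphingosine kinase Sphk2 (339) were above it, as 2 of 3 genes of the sphingosine 1-phosphate list. The arrestin Arrb1, the only gene of its list, was not. Detection differed between the chips for some of these genes. The B-chip probe sets for Gng11 (-81.4 in memory, -51.4 in naive) and Mif (128.0 and 190.4) were under the floor. So was that for Vav1 (315.6 and 251.9), which read 463 on the memory A array. The memory value of 315.6 for Vav1 was above the memory B array's own noise limit of 286.8, however. By each array's own limit Vav1 was thus detected in memory on both chips. Gnas, Gnb1 and Cdc42 were above noise in memory on both chips. Their A-chip probe sets, and that for Mif, are also of the sequence-family class, so related genes may contribute to those values.

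Chemokines and their receptors are made by many cell types, and markers of others were present. Macrophage and monocyte markers were above the floor in 12 of 13 genes on the B chip, with 6 called higher and 0 lower in memory, where 1.02% and 1.73% of all probe sets were, and a summed intensity of 31367.9 in memory against 18595.8 in naive. All 12 were bright enough to be called, and of all 522 probe sets that bright 34.5% were called in either direction. The marker not above the floor was Cybb. On the memory A array 8 of 11 were above the noise limit, with Mpeg1, Fcgr1 and Marco not. Mpeg1 read 96 there, whereas its B-chip probe set read 3664.7 in memory against 954.1 in naive and was called higher. T cell markers were above the floor in 5 of 7 on the B chip, with Thy1 called lower and summed intensities of 5186.3 in memory and 8952.8 in naive. Most of that difference was Thy1 itself (2847.7 against 6184.1), and the other 6 summed to 2338.5 and 2768.7. Cd8a read 498.3 in memory and 351.6, under the floor, in naive. On the memory A array 3 of 4 T cell markers were above the limit, Cd3e, Cd247 and Cd28, and Cd5 was not. The B-chip probe set for Cd247 was under the floor (167.7 in memory, 222.7 in naive). Granulocyte markers were above noise in 4 of 5 on the B chip, summing to 9928.9 in memory and 10712.9 in naive, and in 3 of 4 on the memory A array. The part of these cells in the values of Cxcl2, Ccl2, Ccr2, Cxcl10 and the other members was not tested, and in such bulk RNA fewer cells of a type and less RNA per cell cannot be told apart. Dendritic cell and MHC class II genes were above the floor in 6 of 7, with 2 called higher and 1, Cd74, called lower. Erythroid genes were above it in 4 of 4, with 1 called higher and 2 lower, and B cell genes in 1 of 3, with none called. On the memory A array 1 of 4 dendritic cell and MHC class II genes, 2 of 3 erythroid genes and 2 of 4 B cell genes were above the limit. Of the stromal and endothelial markers 0 of 5 were above the floor on the B chip and 1 of 6, Col1a1, above the limit on the memory A array. Col1a1 read 194, close to that limit, from a probe set of the sequence-family class. NK cell markers numbered 2 on each chip. On the B chip Klra4 (102.2 in memory against 548.1 in naive) and Klra8 (278.9 against 515.8) were above the floor only in naive, and on the memory A array Klra7 (283) was above the limit and Klrb1c was not. The Klra4 and Klra8 probe sets are of the sequence-family class, so related genes may contribute to both values.

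**Figure D4:**
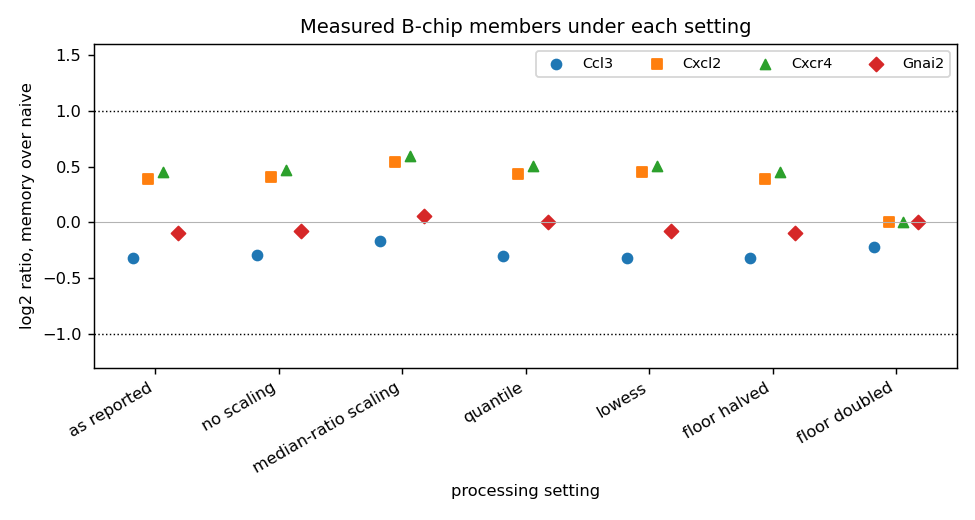
Log2 ratio of memory over naive for Ccl3, Cxcl2, Cxcr4 and Gnai2 as reported and under 6 other settings of scaling and floor, with dotted lines at 2-fold. No value passes 2-fold, and Gnai2 changes sign with median-ratio and quantile scaling. With the floor doubled only Ccl3 remains measured, and the other 3 are at the floor on both arrays, where the ratio is 0 by construction.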

How the data were processed

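Total RNA of the naive and memory populations was made into cRNA and hybridised as the manufacturer describes, per the labels. The authors deposited 1 intensity per probe set and array; the sources used here name neither the software nor a genome build. The 2% trimmed mean of each deposited array lay between 150.2 and 150.4. Symbols came from the platform annotation and were compared by Entrez number with RefSeq (GRCm38.p6), which held 5551 A-chip and 1993 B-chip numbers and changed 0 symbols. One symbol was listed for 5560 A-chip and 2001 B-chip probe sets, several for 197 and 27, and none for 827 and 4567; the last 2 kinds are not named.

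With 55 controls per chip left out, the B arrays were scaled to a common 2% trimmed mean, signals under the floor were raised to it, and log2 ratios were taken (Python 3.11.15, numpy 2.4.6, pandas 2.3.3). Memory A values were used as deposited. List genes were represented by their brightest probe set. All B-chip members are named with values, A-chip members with their memory value, and pathway genes when called or as examples chosen after their values were seen. With 1 array per group no test and no leave-one-out was possible, and precision is limited by the number of arrays. The call rule was tested on simulated data, with changes placed only in probe sets brighter than any B-chip member. That test therefore does not cover the members. The alternatives were other scalings, floors, thresholds and probe set classes. The members and lists were chosen with earlier results of these data known.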

Additional observations from a re-analysis of the deposited data

Results flagged for a closer look

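The naive A array, which enters no comparison here, listed 5 of the 35 A-chip member probe sets above its noise limit of 296, beside 18.4% of all 6529 probe sets on that array. Ccr4 was listed at 7515, a probe set of Rgs5 at 1219, one of Ccl25 at 395, Ccl9 at 350 and Rgs16 at 326. They are given because they are signals in data that the comparisons leave out. None of the 5 was above the noise limit of the memory A array, where they read 107, -10, 19, 100 and 154. Because the naive A values do not follow their gene names, these readings are not taken as levels of the genes.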

How the results depend on the processing

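No B-chip member was called higher or lower under any of the 13 alternatives: no scaling, median-ratio, quantile or intensity-dependent scaling, the floor halved or doubled, a 1.5-fold or a 3-fold threshold, looser and stricter limits on brightness, and restrictions by probe set class or to probe sets above the floor on both arrays. The 3-fold threshold, the stricter brightness limit and the restrictions only narrow the rule, so they could not add a call. With the floor doubled no member was bright enough to be called, the highest value being 985.4 for Ccl3 in naive. These settings therefore say nothing about stability. The median log2 ratio of the measured members, 0.15, became 0.17 without scaling, 0.30 with median-ratio scaling, 0.22 with quantile normalization, 0.19 with intensity-dependent normalization and 0.39 without sequence-family probe sets, which drops Gnai2. With the floor halved it was -0.095 over 5 members, since Cxcr5 joined, and with the floor doubled -0.22, the ratio of Ccl3 alone. No measured member was left when only probe sets without a class letter were kept, so no median could be given.

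The log2 ratio of Cxcr4 ranged from 0.00 to 0.60, that of Cxcl2 from 0.00 to 0.54, that of Ccl3 from -0.32 to -0.17 and that of Gnai2 from -0.10 to 0.05. The scaling also moved the chip as a whole. The median of all measured probe sets was -0.12 as reported and -0.02 with median-ratio scaling, and the split of calls was 67 higher to 113 lower as reported, 94 to 91 with median-ratio scaling, 100 to 73 with quantile and 76 to 54 with intensity-dependent normalization. The number of pathway genes called lower was 1 as reported, 2 with the 1.5-fold threshold (Cd74 and Rac2), and 0 with quantile normalization, with intensity-dependent normalization and with only probe sets without a class letter, which drops Cd74. Why the scalings differ was not tested.

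On the memory A array 16 of 35 member probe sets were above the halved noise limit (45.7%, beside 42.3% of all probe sets) and 8 above both the doubled limit and the limit at the 99th percentile (22.9%, beside 13.9% and 16.2%). With only probe sets without a class letter 1 of 6 was above the limit, that of Ccl4 (16.7%, beside 14.6%), since fewer probe sets remained. No paired analysis was possible because each group had 1 array per chip and the labels give no replicate numbers. Low signal over background limits most members: 10 of 14 on the B chip and 24 of 35 on the A chip were within noise.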
